A study of Homo sapiens with 19 samples.

Results

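Microexons are very short exons that a transcript can include or skip whole. Here they were cassette exons of 3 to 27 nt: GENCODE annotates the junction on each side of the exon as well as the junction that joins its neighbours directly, and at least 1 read over 19 libraries crossed the latter, showing a skipped transcript. The junctions on both sides of the exon also had to have reads in these libraries. The rule found 536 microexons in 480 genes among 26775 cassette exons of up to 1000 nt. Of these, 419 lay in coding sequence, 33 in 5′ UTRs, 5 in 3′ UTRs, 39 in noncoding transcripts, 17 held a start or stop codon, and 23 were not annotated as an exon of their own.

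Most microexons of coding genes insert a few amino acids without shifting the reading frame, often at the edge of a binding domain. They are best known from neurons, where the splicing factor SRRM4 promotes their inclusion, while PTBP1 keeps many of them out in other cells. RBFOX2, an RNA-binding protein of the RBFOX family, binds GCAUG in introns and as a rule favours an exon when it binds downstream of it and skipping when it binds upstream.

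The libraries were ribosomal-RNA-depleted RNA-seq of established human cell lines. The first 14 came from HUES66, a human embryonic stem cell line, all treated with doxycycline at 1 µg/ml, at 24, 48 or 96 hr. They carried a control (labelled wild type), a knockdown of total RBFOX2, or a knockdown of the RBFOX2 isoforms that the labels call N-short or N-long; the series title names the RNA-targeting nuclease Cas13d as the tool. The other 5, for which the labels give no treatment, were wild-type HUES66, HEK293 (embryonic kidney) total RNA, and total, nuclear and cytoplasmic RNA of A375 (melanoma), with 1 library each.

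The 14 doxycycline-treated libraries fell into 4 sets. The first 24 hr set held the 3 knockdowns and no control, the second 24 hr set held a control, N-short and N-long but no total knockdown, and the 48 hr and 96 hr sets each held all 4 states. The control of the second 24 hr set is therefore the only library labelled as a 24 hr control. The wild-type HUES66 library has a description like that of the controls but no treatment or time in its labels, so it was used as a control only in an alternative fit. The libraries had 9622841 to 14625040 junction reads, and the 5 others 6499183 (A375 nuclear) to 27937149 (wild-type HUES66). The RNA of 6 pluripotency markers summed to 1834 to 2441 CPM (counts scaled to the library's total of junction reads) in the 15 HUES66 libraries and to at most 0.742 CPM in the others. SOX2, which has no intron and so no junction, was at 0 everywhere. A375 had 104.3 CPM of SOX10 and 40.5 CPM of MITF, but the melanocyte genes MLANA and TYR were at 0.

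The sequences of some of the microexons on which the results below turn are given here. They come from GENCODE 29 transcripts on GRCh38 (hg38), 5′ to 3′ as in the RNA with T for U. Capitals mark the microexon and lower-case letters the 15 nt of the neighbouring exons on each side. The first group changed with the RBFOX2 knockdowns.
DIAPH1, 27 nt, chr5:141588224-141588250, minus strand: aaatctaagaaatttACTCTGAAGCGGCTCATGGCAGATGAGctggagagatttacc
MACF1, 18 nt, chr1:39465095-39465112, plus strand: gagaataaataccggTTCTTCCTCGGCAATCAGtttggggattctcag
DST, 18 nt, chr6:56468982-56468999, minus strand: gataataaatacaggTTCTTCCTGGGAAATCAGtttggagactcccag
PICALM, 24 nt, chr11:85978070-85978093, minus strand: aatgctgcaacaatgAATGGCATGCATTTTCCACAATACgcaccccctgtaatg
RAPGEF2, 18 nt, chr4:159243774-159243791, plus strand: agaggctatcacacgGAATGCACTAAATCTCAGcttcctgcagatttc
KIF21A, 21 nt, chr12:39330242-39330262, minus strand: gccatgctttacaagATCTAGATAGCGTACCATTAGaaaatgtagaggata
UGGT1, 24 nt, chr2:128156392-128156415, plus strand: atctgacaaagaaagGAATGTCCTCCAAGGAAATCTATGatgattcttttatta
SUCO, 21 nt, chr1:172577539-172577559, plus strand: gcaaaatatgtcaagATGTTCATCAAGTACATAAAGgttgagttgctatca
INCENP, 12 nt, chr11:62141500-62141511, plus strand: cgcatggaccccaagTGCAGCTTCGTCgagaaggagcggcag

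The next group differed between 48 and 96 hr, between cell lines, or both.
SPTAN1, 15 nt, chr9:128609651-128609665, plus strand: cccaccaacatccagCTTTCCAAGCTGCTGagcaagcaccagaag
AGRN, 12 nt, chr1:1051032-1051043, plus strand: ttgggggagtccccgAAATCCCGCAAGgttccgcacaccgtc
TEAD2, 12 nt, chr19:49355959-49355970, minus strand: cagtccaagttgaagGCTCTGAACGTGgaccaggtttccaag
TEAD1, 12 nt, chr11:12878889-12878900, plus strand: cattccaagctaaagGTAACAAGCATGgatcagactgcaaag
FLNA, 24 nt, chrX:154357251-154357274, minus strand: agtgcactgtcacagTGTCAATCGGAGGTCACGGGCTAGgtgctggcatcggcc
FERMT2, 21 nt, chr14:52861014-52861034, minus strand: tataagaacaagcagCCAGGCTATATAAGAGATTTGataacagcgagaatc
All of these lie in coding sequence and are a multiple of 3 nt long. That does not hold for every microexon called: the 22 nt exon of RPS24, described below, is annotated in the 3′ UTR. The MACF1 and DST microexons belong to 2 related genes and are identical at 16 of 18 bases; counted from the first base of the microexon, with MACF1 first, the differences are C9G and C12A. The microexons of TEAD1 and TEAD2, paralogs as well, share 5 of 12 bases.

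A length that keeps the reading frame was more frequent among the microexons than among other cassette exons. It was divisible by 3 in 69.6% of the microexons and in 40.9% of the 26239 others. Among those in coding sequence the shares were 78.3% and 48.7%. Inclusion, the share of inclusion reads among inclusion and skipping reads, was also lower. Over the 14 doxycycline-treated libraries, 340 microexons had a mean of at least 20 reads, and their median pooled inclusion was 7.94%, against 91.1% for 14982 other exons with that depth. Inclusion was under 2% for 137 microexons and over 98% for 37. The remaining 166, in 156 genes, were tested together with 6975 other exons, and their median pooled inclusion was 34.0% against 78.4%.

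**Figure D1:**
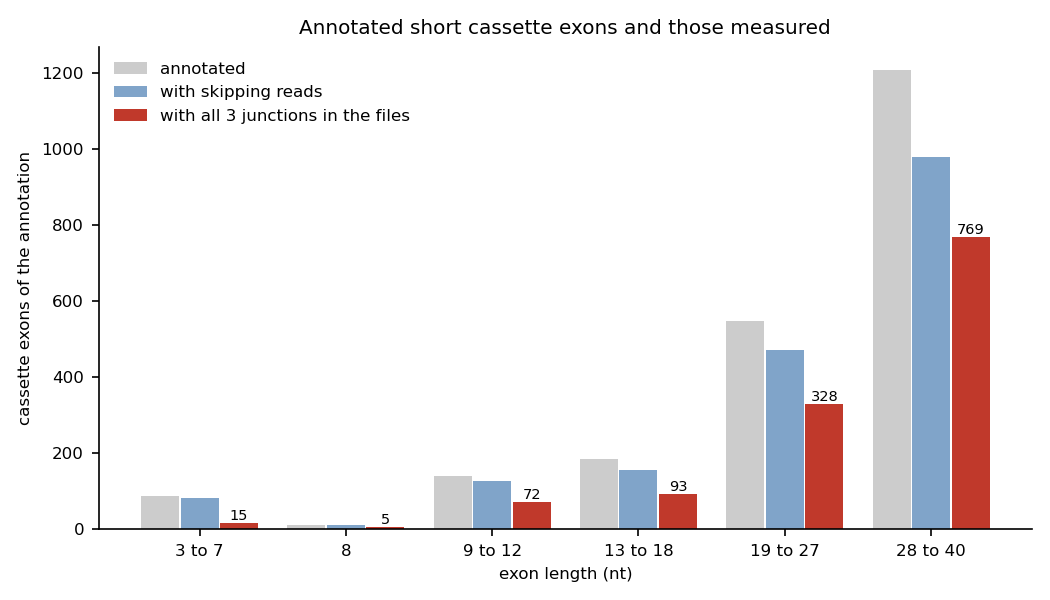
Annotated cassette exons by exon length (x axis, nt) and number (y axis), with bars for all annotated, those with skipping reads, and those that also met the rule. Of the annotated exons of 3 to 7 nt, 15 of 88 met the rule, against 328 of 547 at 19 to 27 nt and 769 of 1208 at 28 to 40 nt.

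The shortest microexons were measured least well, as the plot by exon length shows. Of 81 annotated cassette exons of 3 to 7 nt with skipping reads, 15 met the rule, against 72 of 127 at 9 to 12 nt and 328 of 472 at 19 to 27 nt. In every file the shortest stretch of read on either side of a junction was 8 nt. The part of such limits in the lower inclusion of microexons given above was not tested. Counting those not annotated as exons of their own, 20 microexons were shorter than 8 nt, and for none of them were both inclusion junctions listed in all 19 libraries. A further limit is a shared end: 200 of the 536 begin or end where another annotated exon does, and for 154 one inclusion junction had less than 0.5 of the reads of the other. Counts below are therefore also given for the 129 of 166 tested microexons of at least 8 nt with balanced inclusion junctions, a subset chosen after the data were seen.

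The RNA of RBFOX2 was lower in the total and N-long knockdowns. It was at 133, 129 and 130 CPM in the 24, 48 and 96 hr controls and at 50.7, 83.2 and 80.7 CPM in the total knockdown. It lay at 80.2, 76.6, 92.8 and 86.6 CPM in the 4 N-long libraries and at 117, 122, 127 and 114 CPM in the 4 N-short libraries. Only the N-short libraries came near the controls, and all 4 were below them. The log2 fold change against control was -0.82 for total (edgeR adjusted p = 1.12e-08), -0.57 for N-long (adjusted p = 3.43e-05) and -0.06 for N-short (adjusted p = 0.998). In bulk RNA, fewer cells with an RNA and less of it per cell cannot be told apart.

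Of 20 splicing regulators, 3 fell in the total knockdown by edgeR's test (2.2% of 13628 genes passed in either direction): RBFOX2, ELAVL1 and PTBP2. ELAVL1, which binds AU-rich RNA, was at 102.7, 80.2 and 95.7 CPM in the controls and at 26.7, 52.8 and 62.8 CPM in the total knockdown, without overlap (log2 fold change -0.93, adjusted p = 1.53e-05). PTBP2, the neuronal PTB protein, had a log2 fold change of -0.21 (adjusted p = 0.0204), a call lost without the set as a block and without the 24 or 96 hr control or the 24 or 48 hr total knockdown. Where the set is left out as a block, here and below, time was the block, which joined both 24 hr sets. RBFOX2 alone of the 20 passed in the N-long knockdown (background 0.022%). DESeq2 and the fit without the block called 0 of the 20 there, and without the first 24 hr N-long library PTBP2 passed too. None passed in the N-short knockdown (background 0%), where edgeR gave 1 regulator at an unadjusted p under 0.05 and DESeq2 gave 0. SRRM4, the neuronal microexon factor, was at 0 in A375 and HEK293. These other regulators moved with the same libraries as the microexons of the total knockdown, and their part in the changes below was not tested.

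In the total RBFOX2 knockdown 16 of 166 microexons (9.64%) changed inclusion at an adjusted p under 0.05 by edgeR's quasi-likelihood test, against 1.29% of all 7141 cassette exons tested. Inclusion fell for 12 (background 0.966%) and rose for 4 (background 0.322%). In the subset of at least 8 nt with balanced junctions it fell for 9 and rose for 4, of 129. The tested microexons had a median of 56.8 reads per library and all tested exons 50.6, and they also differed in pooled inclusion, as given above; the part of this in the 2 percentages was not tested. The median log2 ratio of inclusion odds was -0.10 over the microexons and 0.06 over all tested exons. The 3 comparisons of a knockdown with control share the same control libraries, so they are not independent of each other. Only the 48 and 96 hr sets hold both a control and a total knockdown. On the same libraries DESeq2 called 7 microexons, all among the 16: those of DIAPH1, MYH10, PICALM, RAPGEF2 and UGGT1, and the 22 and 25 nt forms in RPS24. By limma on log2 ratios 2 were called, of which 1, UGGT1, was among the 16. With no limit on pooled inclusion DST and SLIT2 lost their calls.

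Of the microexons that fell, those of DIAPH1, MACF1, DST, PHACTR4 and MYH10 are in genes whose proteins act on or bind actin. The share of such genes among all tested microexons was not counted. DIAPH1, a formin that nucleates actin filaments, had the largest mean difference of all that were called. Its 27 nt microexon was included at 78.3%, 92.1% and 74.7% in the 24, 48 and 96 hr controls and at 48.8%, 38.5% and 36.9% in the total knockdown. It was at 58.8%, 62.8%, 48.6% and 46.2% in the N-long libraries (first and second 24 hr set, 48 hr, 96 hr) and at 82.5%, 75.9%, 85.5% and 73.4% in the N-short libraries. The total and N-long libraries all lay below every control, while the N-short libraries overlapped the controls. Against control in the same set the total knockdown fell by 45.7 ± 11.2 percentage points (SD, n = 2 sets), a log2 odds ratio of -2.81 (edgeR adjusted p = 1.47e-08). The N-long knockdown fell by 29.2 ± 14 points (SD, n = 3 sets; adjusted p = 1.75e-05). Both calls held in all 14 runs that left out 1 library.

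MACF1 and DST encode spectraplakins, giant proteins that link actin filaments to microtubules, and their near-identical 18 nt microexons both fell in the total knockdown. The MACF1 microexon was included at 20.7%, 29.1% and 20.6% in the controls and at 7.93%, 8.24% and 13.1% in the total knockdown. It was at 13.95%, 15.4%, 10.5% and 14.98% in the N-long libraries and at 15.7%, 21.4%, 22.2% and 15.4% in the N-short libraries. All total and N-long libraries were below the 3 controls, and the N-short libraries reached into the range of the controls. The log2 odds ratio was -1.50 for total (edgeR adjusted p = 8.02e-05) and -0.93 for N-long (adjusted p = 0.0155), and the N-long call was lost without the 48 hr control or the 48 hr N-long library (adjusted p up to 0.752).

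The DST microexon was included at 33.8%, 35.1% and 34.0% in the controls and at 14.1%, 19.4% and 17.5% in the total knockdown, a gap wider than the spread within either group. It fell by 16.2 ± 0.575 points (SD, n = 2 sets; log2 odds ratio -1.25, edgeR adjusted p = 0.0118). The N-long libraries stood between, at 24.8% to 27.7%, and did not pass the test (log2 odds ratio -0.47, adjusted p = 0.969). The total-knockdown call was lost without the 96 hr control or the 48 hr total knockdown (adjusted p up to 0.234).

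PHACTR4, a regulator of protein phosphatase 1 and actin, had a 24 nt microexon at chr1:28457832-28457855. It was included at 37.5%, 30.0% and 32.6% in the controls and at 20.0%, 6.90% and 0% in the total knockdown, from 32 to 58 reads per library; the 0% is of 33 reads, which allows up to 9.09%. The 2 groups did not overlap (log2 odds ratio -2.34, edgeR adjusted p = 0.0136). Leaving out any of the 4 libraries of 48 and 96 hr that enter it lost the call (adjusted p up to 0.1997). A 27 nt microexon of MYH10, the heavy chain of nonmuscle myosin IIB, was at 4.38%, 7.49% and 3.99% in the controls and at 1.61%, 1.69% and 0.466% in the total knockdown (adjusted p = 1.40e-05). It starts where an annotated exon of 30 nt does, and its own second junction had 64 reads against 442 at the shared one, so its values mix both forms.

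PICALM, DNM2 and UGGT1 have roles in endocytosis or the secretory pathway. PICALM is a clathrin assembly protein, and its 24 nt microexon was included at 80.5%, 95.8% and 88.1% in the controls and at 67.3%, 70.9% and 60.6% in the total knockdown. In the N-long libraries it was at 74.8%, 78.0%, 81.5% and 72.5%, and in the N-short libraries at 84.4%, 82.2%, 94.9% and 82.4%. The total knockdown lay below every control, and of the N-long libraries only the 48 hr one reached the lower end of the controls. Total knockdown gave a log2 odds ratio of -2.10 (edgeR adjusted p = 3.09e-05). N-long gave -1.25 (adjusted p = 0.0493), a call lost in 7 of 14 runs with a library left out.

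DNM2, the ubiquitous dynamin that cuts vesicles from membranes, went the other way. Its 12 nt microexon (chr19:10808569-10808580) was included at 87.0%, 91.2% and 83.5% in the controls and at 96.2%, 97.1% and 93.9% in the total knockdown (log2 odds ratio 2.00, edgeR adjusted p = 0.0147). The groups did not overlap, but the call was lost in 4 of 14 runs with a library left out: without the 48 hr or first 24 hr total knockdown, the 96 hr control or the first 24 hr N-long library (adjusted p up to 0.405). It was also lost without the set as a block (adjusted p = 0.0614). UGGT1, the folding sensor of the endoplasmic reticulum for glycoproteins, has a 24 nt microexon that was near full inclusion in the controls, at 100%, 100% and 97.1%. It was at 95.3%, 90.7% and 76.5% in the total knockdown (log2 odds ratio -3.76, adjusted p = 0.00016). Without the 96 hr control that adjusted p was 0.0896.

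SUCO, a membrane protein with a SUN domain, had a 21 nt microexon that rose within sets but not across them. The controls were at 69.1%, 70.8% and 45.5% and the total knockdown at 65.9%, 94.1% and 74.6%, so the groups overlapped. The 48 and 96 hr sets gave a rise of 26.2 ± 4.02 points (SD, n = 2 sets; log2 odds ratio 1.67, edgeR adjusted p = 0.0021). Without the 96 hr control that adjusted p was 0.0568, and with time in place of the set as the block 0.203.

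The largest rise was in RAPGEF2, an exchange factor that activates Rap GTPases. Its 18 nt microexon was included at 40%, 35.8% and 59.4% in the controls and at 85%, 72.6% and 85.2% in the total knockdown. It was at 73.2%, 70.2%, 64.0% and 73.6% in the N-long libraries and at 59.0%, 61.8%, 27.3% and 59.3% in the N-short libraries. Every total and N-long library exceeded every control, while the N-short libraries spread around the controls. The rise was 31.3 ± 7.76 points in total knockdown (SD, n = 2 sets; log2 odds ratio 2.34, edgeR adjusted p = 1.40e-05) and 24.2 ± 8.71 points in N-long (SD, n = 3 sets; adjusted p = 0.00729). The N-long call was lost without the 48 hr N-long library or the 24 hr control (adjusted p up to 0.321).

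KIF21A, a kinesin motor that acts at microtubule plus ends, had a 21 nt microexon at 34.9%, 71.1% and 34.8% in the controls and 13.04%, 26.2% and 25% in the total knockdown. The groups did not overlap, but the 48 hr control stood far above the other controls, and without it or the 48 hr total knockdown the call was lost (edgeR adjusted p 0.00527, up to 0.600 without one). INCENP, the scaffold of the chromosomal passenger complex in mitosis, had a 12 nt microexon at 4.69%, 11.8% and 6.67% in the controls and 16.1%, 31.1% and 21.7% in the total knockdown. All 3 knockdown values exceeded all 3 controls (log2 odds ratio 1.79, adjusted p = 0.00575), although the call was lost without the 48 hr control, the 48 hr or the 96 hr total knockdown (adjusted p up to 0.141). SLIT2, a secreted guidance cue, had a 24 nt microexon (chr4:20525149-20525172) at 96.0%, 100% and 95% in the controls and 77.3%, 84.8% and 75% in the total knockdown. It rested on 16 to 72 reads per library (adjusted p = 0.0372) and was lost without the 48 hr or 96 hr control or the 48 hr total knockdown (adjusted p up to 0.817).

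The deepest microexon was the 22 nt exon of the ribosomal protein gene RPS24 (chr10:78040204-78040225, plus strand, annotated in the 3′ UTR), with a mean of 6138 reads per library. It was included at 37.1%, 51.4% and 30.1% in the controls and at 29.6%, 37.2% and 19.7% in the total knockdown, so the groups overlapped across times. Within sets it fell by 12.3 ± 2.68 points (SD, n = 2 sets; log2 odds ratio -0.72, edgeR adjusted p = 1.20e-08). N-long fell by 6.02 ± 2.65 points (SD, n = 3 sets; adjusted p = 0.00219). A 25 nt form shares its end and was called alongside it, but the junction of its own had 1 read in all, so it is no separate observation. The remaining call was a 6 nt exon of NSFL1C, a cofactor of the segregase p97. Both of its junctions were listed in 8 of 19 libraries, and its change (adjusted p = 0.00469) is uncertain.

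**Figure D2:**
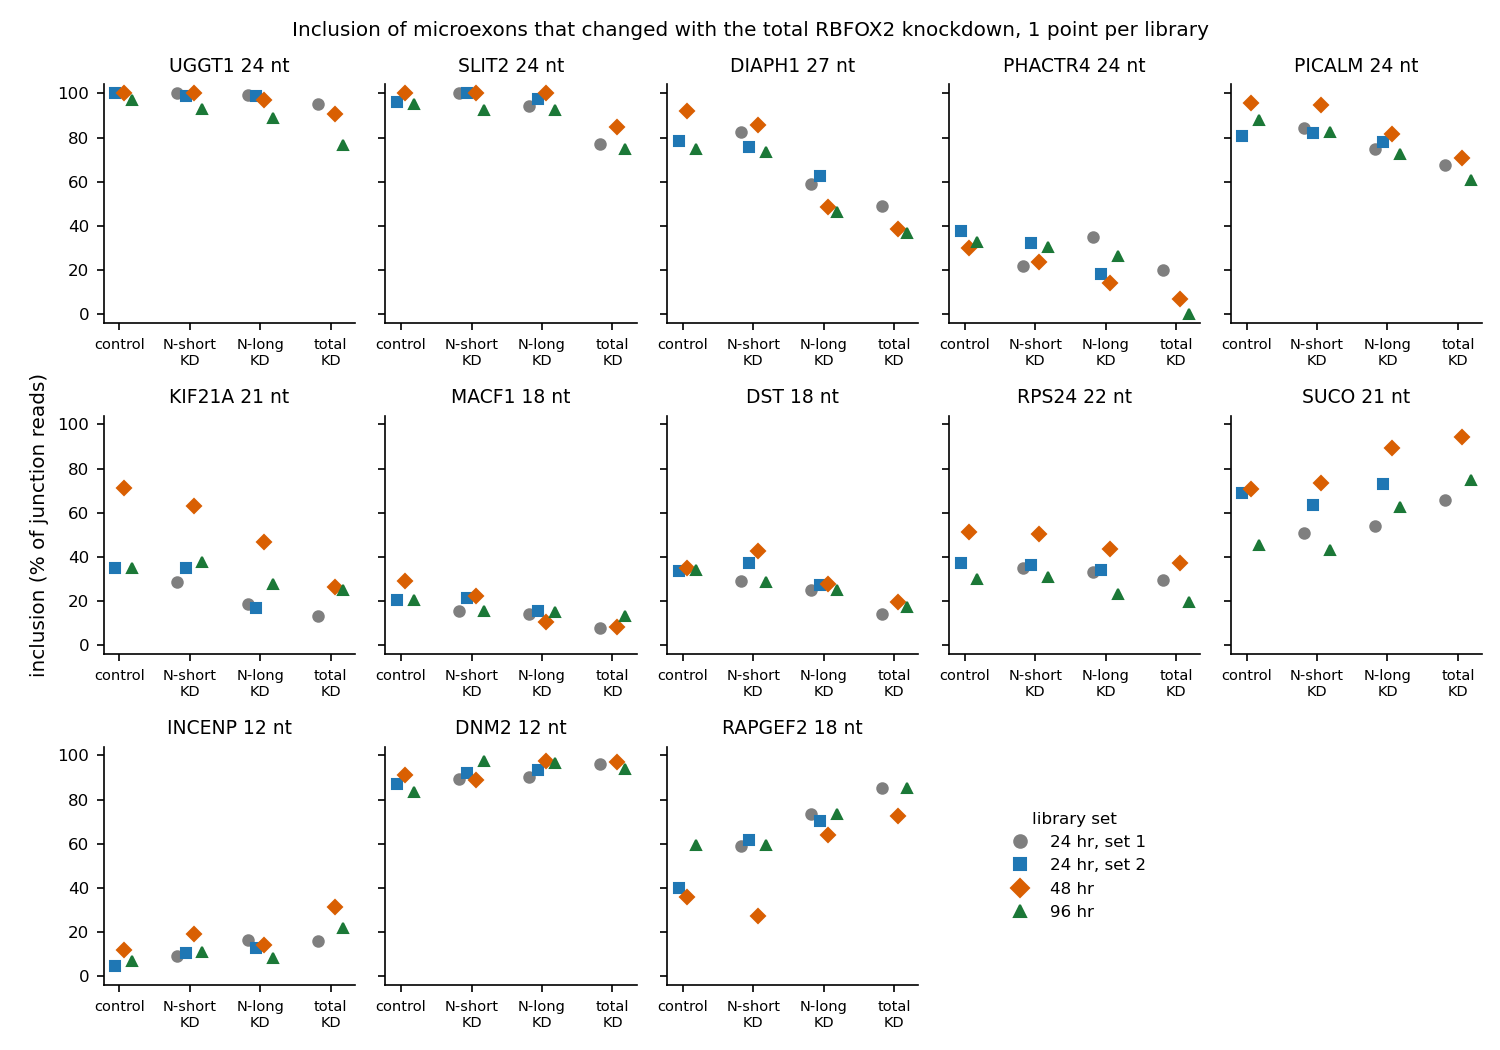
Inclusion (y axis, % of inclusion and skipping junction reads) of the 13 microexons of at least 8 nt with balanced junctions that changed in the total RBFOX2 knockdown, by knockdown state (x axis), 1 point per library with colour and shape for the set. DIAPH1 shows the 3 controls at 74.7% to 92.1%, the N-long libraries at 46.2% to 62.8% and the total knockdown at 36.9% to 48.8%.

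In the N-long knockdown 9 of 166 microexons changed (background 0.518%), 7 with lower (background 0.448%) and 2 with higher inclusion (background 0.07%). In the subset of at least 8 nt with balanced junctions 4 were lower and 2 higher. Of these 9, 8 were also called in the total knockdown: DIAPH1, MACF1, MYH10, NSFL1C, PICALM, RAPGEF2 and both RPS24 forms, all in the same direction. Both comparisons share the control libraries, and this overlap was not counted over all cassette exons. The ninth was a 9 nt microexon of PTK2, the focal adhesion kinase, at 42.3%, 38.2% and 56.6% in the controls and 56.3%, 58.4%, 55.5% and 64.5% in the N-long libraries. The groups overlapped at the 96 hr control, and the call (log2 odds ratio 0.75, edgeR adjusted p = 0.0481) was lost in 6 of 14 runs with a library left out. Without the 48 hr N-long library 3 microexons were called, and without the 96 hr one 5. DESeq2 called 1, DIAPH1, limma 0, and the fit without the set as a block 3: DIAPH1, MYH10 and RAPGEF2. A call in 1 knockdown and not in the other does not show that the 2 differ, and total against N-long was not tested.

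In the N-short knockdown 0 of 166 microexons passed edgeR's test (background 0.014%), and 15 had an unadjusted p under 0.05 (9.04%, background 4.24%). DESeq2 and limma also called 0. The 5 largest mean differences, in SEPT7 (5 nt), CACNA1H (18 nt), TRAPPC9 (27 nt), HOOK2 (6 nt) and TRIM41 (23 nt), each had an edgeR adjusted p of 0.9998. The SEPT7 and HOOK2 exons are shorter than 8 nt. CACNA1H, a T-type calcium channel subunit, was at 62.1%, 44.4% and 80% in the controls and 60.0%, 50%, 45.5% and 44.4% in the N-short libraries, on 14 to 29 reads. TRAPPC9, a TRAPP complex subunit, was at 34.9%, 63.6% and 33.3% in the controls and at 30.0%, 21.4%, 33.3% and 32.0% in the N-short libraries. Only its 48 hr control stood apart.

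Between N-long and N-short, which meet in all 4 sets, 5 of 166 microexons differed (background 0.35%): 4 lower (background 0.294%) and 1 higher in N-long (background 0.056%). DIAPH1 was lower by 25.2 points in N-long (mean difference -25.2 ± 9.83, SD, n = 4 sets; log2 odds ratio -1.79, edgeR adjusted p = 9.51e-05), and its 8 libraries did not overlap. It was the only one of the 5 kept in all 14 runs with a library left out. RAPGEF2 was higher by 18.4 ± 12.5 points (SD, n = 4 sets; adjusted p = 0.0326) and both RPS24 forms and MYH10 were lower. RAPGEF2 was lost on leaving out any N-long or N-short library but those of the second 24 hr set (adjusted p up to 0.99965). Without the 48 hr N-long or the 48 hr N-short library 1 microexon was called, without the 96 hr N-long library 2 and without the 96 hr N-short library 3. DESeq2 called 0 (DIAPH1 at an adjusted p of 0.108), limma 0, and the fit without the set as a block 2: DIAPH1 and MYH10.

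**Figure D3:**
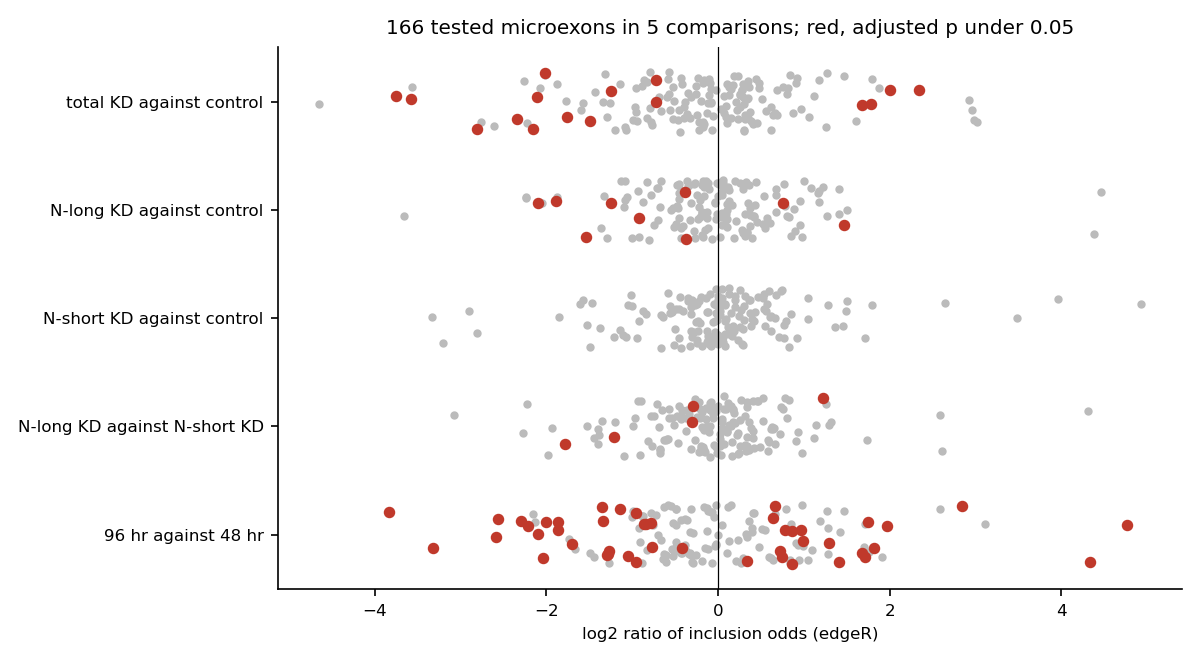
Log2 ratio of inclusion odds (x axis) of the 166 tested microexons in 5 comparisons (rows), 1 point per microexon, red where the edgeR adjusted p is under 0.05. Red points number 16 for total, 9 for N-long and 0 for N-short knockdown against control, 5 for N-long against N-short and 46 for 96 hr against 48 hr.

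The authors' deposited tables of skipped exons, 1 for each knockdown and time point, give a second readout by rMATS. The descriptions of the knockdown samples name these tables, so the readout is not independent of the calls above. The 24 hr ones name 2 control columns, where 1 control library of that time was used above. At an FDR under 0.05 and a difference of at least 0.1, the authors' deposited tables for total knockdown list 4 of 353 exons of 3 to 27 nt at 24 hr (background 0.0818%), 7 of 291 at 48 hr (0.195%) and 3 of 295 at 96 hr (0.13%). For N-long the authors' deposited tables list 1 of 339 at 24 hr (0.0126%), 2 of 296 at 48 hr (0.036%) and 0 of 301 at 96 hr (0.0206%). For N-short they list 0 at each time (0.00322%, 0.00902% and 0%). The N-long exons in the authors' deposited tables are DIAPH1 and MACF1 at 48 hr and KIF21A at 24 hr (difference of 0.224). KIF21A was not called for N-long above. DIAPH1 is in the authors' deposited tables at all 3 times, with control minus total knockdown differences of 0.335, 0.540 and 0.415. MACF1 and RAPGEF2 are in the authors' deposited tables at 24 and 48 hr, PICALM at 48 and 96 hr, KIF21A, SLIT2 and RPS24 at 48 hr, and UGGT1 at 96 hr. One exon there, 12 nt of the myosin gene MYO18A (chr17:29116444-29116455; difference of -0.42 at 24 hr in the authors' deposited table), did not meet the junction rule used here. Of the 18 to 21 exons of 3 to 7 nt in each of the authors' deposited tables, none was listed.

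Inclusion also differed between the 48 and 96 hr libraries, and here the microexons moved in both directions. Of 166, 46 changed by edgeR's test (27.7%; background 16.8%), 20 with higher (background 8.82%) and 26 with lower inclusion at 96 hr (background 7.98%). In the subset of at least 8 nt with balanced junctions 16 were higher and 23 lower. The 2 times are also 2 sets of libraries with 1 library per knockdown state, so time in culture and the set cannot be told apart. DESeq2 called 16 and limma 26. Of the 46, 23 were kept in all 14 runs with a library left out.

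**Figure D4:**
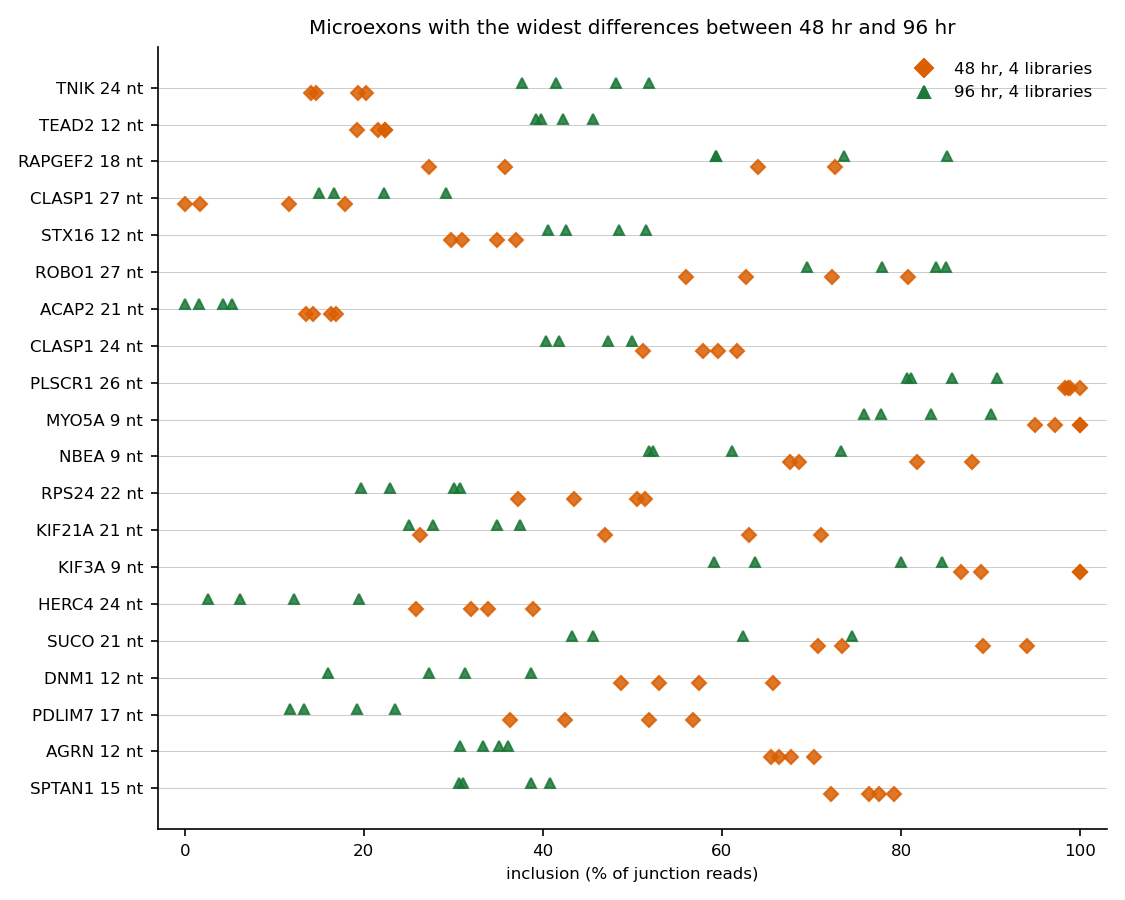
Inclusion (x axis, % of junction reads) of the microexons of at least 8 nt with balanced junctions that had the widest differences between 48 hr (diamonds) and 96 hr (triangles), 4 libraries each. SPTAN1 shows the 48 hr libraries at 72.2% to 79.2% and the 96 hr libraries at 30.6% to 40.7%.

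SPTAN1, alpha-II spectrin of the membrane skeleton, had the widest difference. Its 15 nt microexon was included at 77.5%, 72.2%, 79.2% and 76.5% at 48 hr (control, total, N-short, N-long) and at 40.7%, 30.6%, 38.7% and 31.1% at 96 hr. The 2 times did not overlap, and the 24 hr libraries lay between them, with the lowest just under the highest 96 hr library, at 40.4% to 52.7%. It fell by 41.1 ± 3.56 points (SD, n = 4 states; log2 odds ratio -2.56, edgeR adjusted p = 1.99e-19). The 12 nt microexon of AGRN, the heparan sulfate proteoglycan agrin, was at 65.5%, 67.7%, 66.4% and 70.3% at 48 hr and at 33.3%, 30.8%, 36.1% and 35.1% at 96 hr. It fell by 33.6 ± 3.005 points (SD, n = 4 states; adjusted p = 2.97e-10), with no overlap between the times.

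TEAD2, a DNA-binding partner of YAP in the Hippo pathway, moved up. Its 12 nt microexon was at 22.4%, 19.2%, 22.3% and 21.5% at 48 hr and at 45.6%, 39.8%, 42.3% and 39.2% at 96 hr, without overlap (log2 odds ratio 1.41, edgeR adjusted p = 4.58e-10). TNIK, a STE20 family kinase, had a 24 nt microexon at 19.4%, 20.3%, 14.7% and 14.1% at 48 hr and 48.2%, 37.6%, 51.9% and 41.5% at 96 hr. The times did not overlap there either (log2 odds ratio 1.97, adjusted p = 1.22e-07). The 24 hr libraries stood at 29.9% to 49.5%, above every 48 hr library.

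Some of the microexons that changed are in genes of motors and microtubules. KIF3A, a subunit of kinesin-2, had a 9 nt microexon that fell by 22.1 ± 14.9 points (SD, n = 4 states; edgeR adjusted p = 0.0128) and MYO5A, a cargo-carrying myosin, a 9 nt microexon that fell by 16.3 ± 6.51 points (adjusted p = 0.00173). KIF1A, a kinesin of synaptic vesicle precursors, had a 27 nt microexon that rose by 7.14 ± 3.17 points (adjusted p = 0.00077). CLASP1, which stabilises microtubule ends, had 2 that moved in opposite directions: a 27 nt one rose by 12.97 ± 2.71 points (adjusted p = 0.0052) and a 24 nt one fell by 12.7 ± 6.63 points (adjusted p = 0.00913). The 24 nt one was lost in 2 of 14 runs with a library left out (adjusted p up to 0.088) and KIF3A in 4 (up to 0.0941), while KIF1A, MYO5A and the 27 nt CLASP1 microexon were kept in all 14.

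Others are in genes of membrane traffic and signalling. DNM1, the neuronal dynamin, had a 12 nt microexon that fell by 27.9 ± 9.95 points (SD, n = 4 states; edgeR adjusted p = 0.00409). The 24 nt microexon of HERC4, a ubiquitin ligase, fell by 22.6 ± 6.95 points (adjusted p = 0.000274), and the 21 nt one of ACAP2, a GTPase-activating protein for ARF6, by 12.5 ± 2.95 points (adjusted p = 0.000603). STX16, a syntaxin of the trans-Golgi network, had a 12 nt microexon that rose by 12.7 ± 6.35 points (adjusted p = 0.0123), and ROBO1, a receptor for SLIT proteins, a 27 nt one that rose by 11.2 ± 5.44 points (adjusted p = 0.0152). DNM1 was lost in 1 of 14 runs with a library left out (adjusted p up to 0.0594), STX16 in 2 (up to 0.0954) and ROBO1 in 3 (up to 0.126). HERC4 and ACAP2 were kept in all 14.

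Of the 16 microexons called in the total knockdown, 9 were also called between 48 and 96 hr: INCENP, KIF21A, MYH10, PICALM, RAPGEF2, SUCO, UGGT1 and both RPS24 forms. The same 48 and 96 hr libraries enter both comparisons, and this overlap was not counted over all cassette exons. Between these times 27.7% of the tested microexons and 16.8% of all tested exons were called. The RNA of some cell type marker lists also differed between these times. The melanocyte list, whose level in HUES66 is nearly all PMEL, summed to 69.1 to 73.2 CPM at 48 hr and to 39.8 to 47.2 CPM at 96 hr, with MLANA and TYR at 0. The 3 neural progenitor markers summed to 30.8 to 33.9 CPM at 48 hr and 34.9 to 37.2 CPM at 96 hr. That sum is nearly all NES, with SOX1 at 0 and PAX6 at no more than 0.0966 CPM in these libraries. The 8 neuronal markers summed to 70.7 to 77.4 CPM at 48 hr and 77.3 to 81.95 CPM at 96 hr, and the pluripotency list to 2328 to 2441 and 2223 to 2362 CPM. The part of cell state in these differences was not tested.

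Microexons in genes with known neuronal microexons ranged from almost always skipped to mostly included, and some were poorly covered. They were taken by gene, so a member need not be the one known from neurons. A list of 30 genes with known neuronal microexons held 29 members in 21 genes, of which 11 in 8 genes were tested. Their median pooled inclusion was 32.6%, beside 34.0% for all tested microexons. Of the 11, 1 was called in the total and 1 in the N-long knockdown (MACF1, 18 nt, in both), 0 in N-short and between N-long and N-short, and 6 between 48 and 96 hr (AGRN, both CLASP1 microexons above, MACF1 9 nt, ROBO1 and SPTAN1). Over all cassette exons tested the shares called were 1.29%, 0.518%, 0.014%, 0.35% and 16.8% for total, N-long, N-short, N-long against N-short and 96 hr against 48 hr. The classic 18 nt microexon of SRC, a tyrosine kinase whose neuronal form includes it, had a pooled inclusion of 5.48%. Those of the clathrin adaptor subunit AP1S2 (0.914%) and the transcription factor MEF2D (0.719%) were almost always skipped. Others of the list were higher, such as MACF1 9 nt (96.3%), ROBO1 (73.8%) and SPTAN1 (52.4%). Of all 340 microexons with a mean of at least 20 reads, 40.3% were under 2%, a share not counted for the list.

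The cell lines differed widely at some microexons, though each line is 1 library and no test was possible. Among 243 microexons with at least 20 reads in A375, HEK293 and wild-type HUES66, inclusion spanned at least 20 points over the 3 lines for 45, against 5.51% of all cassette exons under the same rule. Inclusion was highest in A375 for 21 of them, in HUES66 for 20 and in HEK293 for 4, a split not counted over all cassette exons. By pairs, 24 of 247 differed between A375 and HEK293 (background 2.96%), 40 of 274 between A375 and HUES66 (3.44%) and 36 of 286 between HEK293 and HUES66 (3.48%). A375 was the higher line for 18 of the first pair (background 2%) and HEK293 for 6 (0.956%). A375 was the higher line for 21 of the second pair (1.8%) and HUES66 for 19 (1.64%). HEK293 was the higher line for 10 of the third pair (1.28%) and HUES66 for 26 (2.2%). Over 85 microexons with at least 20 reads in all 19 libraries and pooled inclusion of 2% to 98%, the median inclusion was 25.8% in HEK293, 37.0% in A375 and 36.0% in wild-type HUES66. It was 30.8% to 38.9% over the 14 doxycycline-treated libraries.

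**Figure D5:**
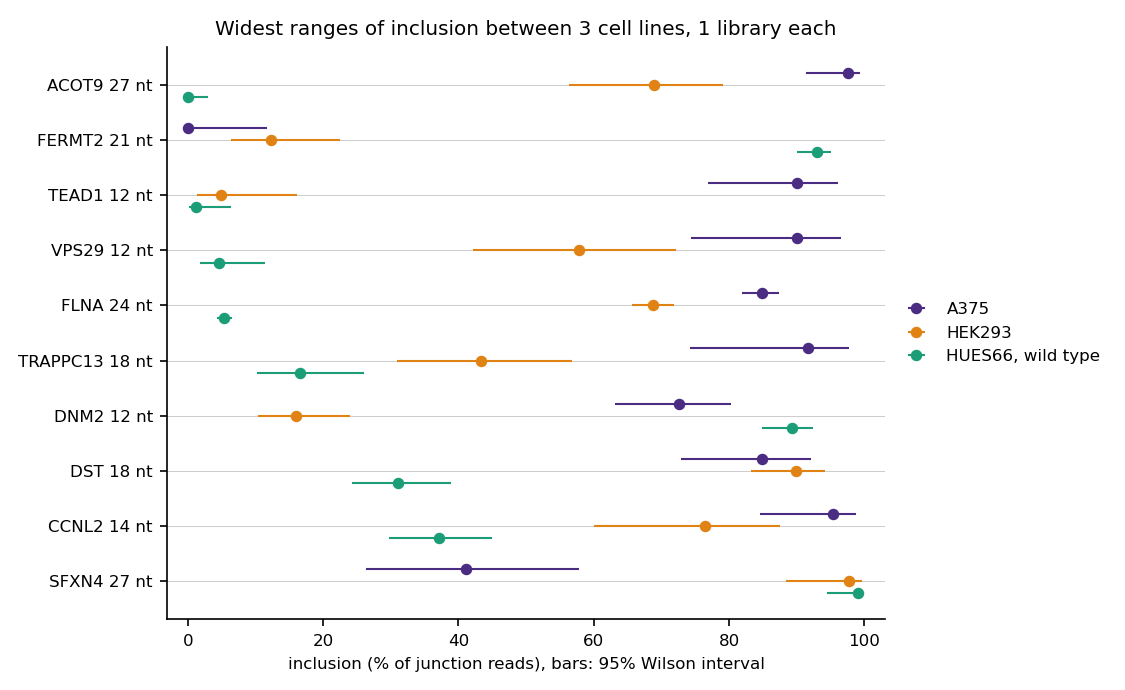
Inclusion (x axis, % of junction reads) of the 10 microexons with the widest range over A375, HEK293 and wild-type HUES66, 1 library per line, with bars for the 95% Wilson interval, which covers counting error only. ACOT9 spans 97.5% in A375 to 0% in HUES66, and FERMT2 0% in A375 to 93.0% in HUES66.

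ACOT9, a mitochondrial acyl-CoA thioesterase, had the widest range. Its 27 nt microexon was included at 97.5% in A375 (95% Wilson interval 91.3 to 99.3, 80 reads) and 68.9% in HEK293 (56.4 to 79.1, 61 reads). In wild-type HUES66 it was at 0% of 123 reads, which allows up to 2.44%, and the doxycycline-treated controls were at 0% too. FERMT2, kindlin-2 of integrin adhesions, showed the reverse order: its 21 nt microexon was at 0% of 29 reads in A375 (up to 10.3% allowed), 12.3% in HEK293 (6.37 to 22.5) and 93.0% in HUES66 (90.1 to 95.1). The 3 doxycycline-treated HUES66 controls, at 93.6% to 96.1%, lay close to the wild-type library.

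TEAD1 separated A375 from the other lines. Its 12 nt microexon was at 90.0% in A375 (Wilson interval 76.9 to 96.0), 4.88% in HEK293 (1.35 to 16.1) and 1.18% in HUES66 (0.208 to 6.37). The related microexon of TEAD2 was at 18.8%, 38.9% and 40.1% in the same order, but its 48 hr HUES66 libraries, at 19.2% to 22.4%, were near the A375 value. FLNA, the actin crosslinker filamin A, had the deepest of these microexons, with 646 to 1666 reads: its 24 nt microexon was at 84.8% in A375 (81.9 to 87.4), 68.8% in HEK293 (65.6 to 71.8) and 5.34% in HUES66 (4.36 to 6.53). None of its 3 intervals overlapped.

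VPS29, TRAPPC13 and DNM2 act in membrane traffic. VPS29, a subunit of the retromer, had a 12 nt microexon at 90.0% in A375 (Wilson interval 74.4 to 96.5), 57.9% in HEK293 (42.2 to 72.1) and 4.65% in HUES66 (1.82 to 11.4). TRAPPC13, a TRAPP complex subunit, had an 18 nt microexon at 91.7%, 43.4% and 16.7% in the same order. DNM2 was lowest in HEK293, at 16.1% (10.4 to 24.0), against 72.5% in A375 (63.2 to 80.3) and 89.3% in HUES66 (84.9 to 92.5). The A375 and HEK293 intervals of VPS29 did not overlap, nor did any pair of the 3 DNM2 intervals.

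DST, which fell with the total knockdown, was lower in HUES66 than in the other lines: it was at 84.9% in A375 (Wilson interval 72.9 to 92.1), 89.9% in HEK293 (83.2 to 94.1) and 31.1% in HUES66 (24.3 to 38.9). The A375 and HEK293 intervals overlapped. SFXN4, a mitochondrial sideroflexin, had a 27 nt microexon at 41.2%, 97.8% and 99.0% in A375, HEK293 and HUES66. The tenth of the group, a 14 nt exon of CCNL2 (cyclin L2) at 95.3%, 76.5% and 37.1%, has unbalanced junctions, and its range fell from 58.3 to 46.7 points when the smaller junction was used. Among regulators, ESRP1, an epithelial splicing factor, was at 0.124 CPM in A375, 7.17 CPM in HEK293 and 317 CPM in wild-type HUES66. SRRM4 was at 1.96 CPM in wild-type HUES66 and at 0 in the other lines. The part of these regulators was not tested.

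Nuclear and cytoplasmic RNA of A375 differed at few microexons. Of 227 with at least 20 reads in both fractions, 5 differed by at least 20 points (background 1.59%), 4 with higher inclusion in the nucleus (background 1.01%) and 1 in the cytoplasm (background 0.579%). Of 170 with balanced junctions 1 was higher and 1 lower in the nucleus. The 2 were TNIK and SIDT2. TNIK was at 66.7% in nuclear RNA (95% Wilson interval 45.4 to 82.8, 21 reads), 42.1% in cytoplasmic RNA (30.2 to 55.0, 57 reads) and 32.3% in total RNA, below both. SIDT2, a lysosomal membrane protein, had a 12 nt microexon at 11.1% in nuclear RNA (3.85 to 28.1, 27 reads) and 46.4% in cytoplasmic RNA (29.5 to 64.2, 28 reads), with 25% in total RNA. The intervals of TNIK overlapped and those of SIDT2 did not.

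The other 3 have limits of counting. A 3 nt exon of CYTH2, an ARF exchange factor, was at 51.9% in nuclear and 0% of 73 reads in cytoplasmic RNA (up to 4.11% allowed), but with the smaller of the 2 inclusion junctions in place of their mean the difference was 0 points. The 14 nt exons of CCNL1 (45.0% nuclear, 9.76% cytoplasmic) and CCNL2 (97.7% and 72.0%), 2 related cyclins that associate with splicing kinases, both have unbalanced junctions. The nuclear library had 6499183 junction reads against 22344622 in the cytoplasmic one, and the part of this difference in depth was not tested.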

How the data were processed

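RNA-seq junction files of 19 libraries held raw, deposited counts of reads per splice junction, in the layout that regtools writes; filters are not given in the sources used here. The submitters' processing notes name STAR 2.7.1, SAMtools 1.9 and hg38. The deposited junction counts were joined to GENCODE 29 (GRCh38). For each exon the counts of its 2 inclusion junctions were averaged and rounded, and inclusion is this number as a percentage of inclusion plus skipping reads. Exons that averaged 20 or more reads over the 14 doxycycline-treated libraries, with a pooled inclusion of 2% to 98%, were tested with edgeR's quasi-likelihood test (edgeR 4.0.16, R 4.3.3) on inclusion and skipping counts, with the set (24 hr set 1, 24 hr set 2, 48 hr, 96 hr) as a block and Benjamini-Hochberg adjustment over 7141 exons. A call is an adjusted p under 0.05. The labels tie a set together by time and replicate number, and same-set libraries deviated together: over 18 same-set pairs the median correlation of deviations was 0.185 (0.0517 to 0.383), against -0.0298 (-0.323 to 0.231) over 55 pairs from different sets; the 2 ranges overlap. DESeq2 1.42.0 and limma 3.58.1 (log2 ratios with a pseudocount of 0.5) served as alternatives. Other runs changed the read limits or the junction choice, or left out each library in turn. Fits called without the block had time as the block in place of the set, which joined both 24 hr sets. The code was tested on simulated data.

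Nothing in the labels says that libraries came from separate cultures, so p-values measure only the spread between these libraries. Single libraries were compared by size, at least 20 points with at least 20 reads in both, with 95% Wilson intervals; these and the limits at 0 (3 counts) cover counting error only. RNA of genes was summed from annotated junction reads and given as CPM, with library sizes adjusted by TMM factors. The authors' deposited tables of skipped exons hold rMATS inclusion differences (control minus knockdown, on a scale from -1 to 1) and p-values with FDR, per the file headers; they were reduced to 1 row per exon by the lowest FDR, and 69 columns of per-library values were not used. Figures used matplotlib 3.10.9, and tables Python 3.11.15 with numpy 2.4.6, pandas 2.3.3 and scipy 1.17.1.

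The microexons, gene lists and tests were chosen with earlier results of these data known. Named were the microexons called in any comparison, the 5 largest differences where none was called, the 10 widest ranges over cell lines and fraction differences, the 10 deepest, the 5 shortest, and those of the list of 30 neuronal genes; the text gives those that carry a result. The subset of at least 8 nt with balanced junctions was chosen after the data were seen.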

Additional observations from a re-analysis of the deposited data

Results flagged for a closer look

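Of the 46 microexons called between 48 and 96 hr, 41 moved the same way in all 4 knockdown states. In 2 others, DTNB and MINK1, 1 state had a difference of 0, and in the 3 given here 1 state moved in the direction opposite to the other 3. For the 9 nt microexon of PTK2 the 96 hr minus 48 hr difference was -0.649 points in the total knockdown and 9.04 to 18.4 points in the other states. For the 21 nt microexon of PTPRZ1, a receptor tyrosine phosphatase, it was 1.19 points in the N-long knockdown and -8.93 to -4.72 points in the others. For the 21 nt microexon of USO1, a vesicle tether of the Golgi, it was -0.41 points in the total knockdown and 2.3 to 7.32 points in the others. Each state has 1 library per time, and the difference between states was not tested. The 46 were called on the average over these 4 states, so like signs are partly set by that choice. Signs were not counted over all cassette exons.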

How the results depend on the processing

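No call changed direction under any alternative run. For the total knockdown (16) DESeq2 gave 7 and limma 2, and leaving out 1 library gave 9 to 18. For N-short (0) the smaller inclusion junction gave 3, all under 8 nt (NSFL1C, AP2M1 and SEPT7), and leaving out 1 library gave 0 to 1. For N-long (9) DESeq2 gave 1 and limma 0, and leaving out 1 library gave 3 to 10. For N-long against N-short (5) DESeq2 gave 0, limma 0, no limit on pooled inclusion 2 and the balanced microexons of at least 8 nt 3, and leaving out 1 library gave 1 to 6. For 96 hr against 48 hr (46) DESeq2 gave 16 and limma 26, and leaving out 1 library gave 33 to 46. With time in place of the set as the block the counts were 16 for total, of which 13 were among the 16 called with the set. They were 3 for N-long, 2 for N-long against N-short and 37 for 96 hr against 48 hr. Of the regulators' 4 calls, 2 were left. With the wild-type HUES66 library as the control of the first 24 hr set, the counts were 23, 0, 11, 5 and 45 in the order above.

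The cell line count (45) became 17 with at least 50 reads and 71 with at least 10 points. The fraction count (5) became 11 with at least 10 reads, 0 with at least 50 reads, 20 with at least 10 points and 2 in the balanced microexons of at least 8 nt. The cause of these changes was not tested, except that stricter limits leave fewer microexons. The planned search for GCATG in the introns was not run, as no genome was used here. Low depth limits microexons under about 50 reads, and exons under 8 nt were seen only in part.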
